A study of Danio rerio with 13 samples.

Results

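Hearts of zebrafish embryos injected with a becn1 morpholino were compared with all control hearts of the same series. The comparison took 8 of the 13 arrays, 3 becn1 arrays against 5 control arrays, chosen by the sample titles. The 5 controls were 2 arrays of hearts from embryos injected with a control morpholino and 3 arrays of hearts from uninjected embryos. They were taken as 1 group, and each gene was then also compared with each kind of control. All 15502 probe sets of a 1-colour Affymetrix zebrafish array, other than its spike-in and housekeeping controls, were analysed.

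The hearts were isolated from embryos at 3 days post-fertilization, and the injections had been made at the 1-cell stage. Morpholinos are synthetic antisense molecules that block the translation or the splicing of a target RNA. Their effect is transient, and an injection at this stage reaches every tissue of the embryo. Whether these morpholinos blocked translation or splicing, the fish strain and the number of embryos behind each sample were not given in the sources used here. All groups came from the same kind of embryo as far as the labels go, with no mutant allele named. The other 5 arrays of the series, 3 of atg5 and 2 of atg7 morphant hearts, served to estimate the spread and as a further comparison. The title of the third becn1 array gives the gene as becn, which was taken as becn1, and 1 protocol field names tumors as the RNA source while the tissue field names the heart. Arrays are named by group and by the replicate number of their title. The titles call them biological replicates, and p-values measure only the spread between these samples.

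Beclin 1, the product of becn1, is the scaffold of the class III phosphatidylinositol 3-kinase complex. With the lipid kinase Vps34 (pik3c3) and its regulatory subunit Vps15 (pik3r4), it marks the membrane from which an autophagosome grows. The Atg12 and LC3 conjugation systems, to which Atg5 and Atg7 belong, then extend that membrane, and the lysosome degrades the enclosed cargo. In heart muscle, autophagy is known for the turnover of mitochondria and damaged proteins. The series is titled after a role of autophagy in the forming heart, and this comparison asks which transcripts differed in hearts in which becn1 had been targeted.

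The knockdown itself could not be read from the arrays, since no probe set carried the becn1 symbol. Values are log2 of the deposited intensity after quantile normalization over the 13 arrays, and a difference of 1 on this scale is a doubling. Before normalization the median intensity was 32.4 to 61.7 on the 8 arrays, and 25.3% to 35.6% of probe sets lay under an intensity of 16, where the size of a difference is not exact. For a named gene under 16 on any of the 8 arrays the difference is also given floored, with lower intensities set to 16. The ratio of 3' to 5' signal of gapdh, a sign of RNA integrity, was 2.303 to 2.65 on becn1 arrays and 2.33 to 2.99 on control arrays.

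The heart label was checked against 9 cardiac genes, of which 6 had a named probe set and 5 passed the filter on low signal. The heart muscle regulatory light chain gene myl7 measured 9.59, 7.14 and 7.03 on becn1 1, 2 and 3, and 6.63 to 8.43 on control arrays. For cmlc1, another cardiac myosin light chain, the levels were 10.83, 7.96 and 8.32 on the becn1 arrays and 7.48 to 9.53 on the controls. Cardiac troponin T, tnnt2a, was at 8.98, 6.99 and 6.70, against 6.88 to 8.07 on the controls. These 3 heart muscle transcripts were thus present on every array and highest on becn1 1. The other 2 becn1 arrays overlapped the controls in myl7 and cmlc1, and in tnnt2a becn1 3 lay just below the lowest control. Of the cardiac regulators, hand2 was at 7.88, 6.83 and 6.70 on becn1 1, 2 and 3, against 6.79 to 7.38 on the controls. For gata5 the levels were lower, at 5.16, 3.93 and 4.28, against 4.24 to 5.09. The marker under the filter, nkx2.5, was at 4.18, 3.15 and 2.29, against 2.35 to 3.51. Becn1 1 also stood apart over all probe sets kept. It correlated at 0.874 to 0.928 with the control arrays, whereas becn1 2 and becn1 3 correlated with them at 0.929 to 0.966. Genes of other tissues were measured on all arrays too, so the preparations did not hold heart tissue alone. Among them, krt4 of the epidermis was at 11.39 to 11.79 on becn1 arrays and 11.74 to 12.09 on controls. The liver gene tfa was at 9.08 to 11.05 on becn1 arrays and 10.95 to 11.65 on controls.

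Light-sensing genes of the retina, a mucin, a mitochondrial phosphate carrier and a chemokine fell in becn1 morphant hearts, and the transcripts that rose moved by smaller amounts. Of the 10307 probe sets over the filter, 14 differed between becn1 and all control hearts at an adjusted p under 0.05 (limma, Benjamini-Hochberg), which is 0.136% of those tested. There were 7 that rose (0.0679%) and 7 that fell (0.0679%). At an unadjusted p under 0.05 there were 1477, of which 812 were higher and 665 lower. Read by gene from the brightest probe set, 8.42% of all genes kept were higher and 6.4% lower at that p. The counts of each gene list below are to be read beside these shares. Most genes named from a list were those with its smallest p here, so they do not stand for the list. In 801 probe sets (7.77%) the becn1 arrays did not overlap the 5 controls, 469 of them higher (4.55%) and 332 lower (3.22%), and all 14 that were called were among these. The median difference over all probe sets was 0.04 and the median SE was 0.22. The calls changed with the arrays in the fit, and the cause was not tested. None of the 14 was called with becn1 2, uninjected 1, uninjected 3, control morpholino 2, atg5 2 or atg5 3 left out. None was called in a fit of the 8 arrays alone either, which had 1319 at an unadjusted p under 0.05. Without becn1 1 there were 3 calls, without control morpholino 3 there were 2, without becn1 2 there were 2 others, and without becn1 3 there were 35. Without either atg7 array the calls were 2, gnb3b and rcvrn3. The atg7 2 array, which lent spread to the test, had a gapdh ratio of 3' to 5' signal of 5.98 and an acta1 ratio of 86.2, against 2.303 to 3.28 and 8.03 to 29.9 on the other 12 arrays. On the deposited scale, with no further normalization, 11 rose and 48 fell, after scaling to a common trimmed mean 5 rose and 21 fell, and after cyclic loess 6 rose and 19 fell.

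Among the 7 that fell, 4 encode parts of the phototransduction cascade. Light activates an opsin, which activates the G protein transducin. Transducin then turns on a cGMP phosphodiesterase, and ion channels close. The G protein beta subunit gnb3b, which belongs to cones, had levels of 4.46, 5.44 and 6.73 on becn1 1, 2 and 3, against 8.76 and 8.44 in control morpholino hearts and 9.26, 8.03 and 8.73 in uninjected hearts. Its difference was -3.10 (SE 0.41; adjusted p = 0.0304), the smallest p of all probe sets. All 3 becn1 arrays lay below all 5 controls, with becn1 1 lowest.

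The cone transducin alpha subunit gnat2 was at 0.06, 3.83 and 4.70 on the becn1 arrays, against 7.56 and 6.95 in control morpholino hearts and 8.15, 6.40 and 7.63 in uninjected hearts. The difference was -4.48 (SE 0.75; adjusted p = 0.0448), or -3.11 when floored, since becn1 1 and becn1 2 were under an intensity of 16. A brighter probe set of gnat2 measured 3.64, 6.51 and 7.40 on the becn1 arrays, against 9.62 and 9.04 with control morpholino and 9.99, 8.58 and 9.95 uninjected. It differed by -3.58 (SE 0.68) and narrowly missed the call at an adjusted p of 0.0526. On both probe sets the groups did not overlap and becn1 1 was far below becn1 2 and becn1 3.

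Recoverin 3 (rcvrn3), of a family of photoreceptor calcium sensors, was at 3.08, 4.07 and 4.64 on the becn1 arrays, against 6.63 and 6.13 in control morpholino hearts and 6.94, 5.94 and 6.54 in uninjected hearts. Its difference was -2.504 (SE 0.37; adjusted p = 0.0389), or -2.199 floored. The transducin gamma subunit gngt1, known from rods in mammals, was at 5.85, 7.21 and 7.70, against 9.17 and 8.67 with control morpholino and 9.43, 8.20 and 8.96 uninjected, and fell by 1.97 (SE 0.35; adjusted p = 0.0448). In both genes the order on the becn1 arrays was again becn1 1 lowest and becn1 3 highest, with no overlap with the controls.

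The gel-forming mucin muc5.2, made by secretory cells of epithelia, had levels of 4.82, 4.25 and 5.91 on the becn1 arrays, against 7.52 and 6.77 in control morpholino hearts and 8.72, 7.45 and 8.78 in uninjected hearts. Its difference was -2.86 (SE 0.44; adjusted p = 0.0421). Becn1 2 was lowest here, and the control morpholino hearts lay nearer to the becn1 hearts than 2 of the 3 uninjected hearts did. The mitochondrial phosphate carrier slc25a3a was at 3.76, 4.50 and 5.75, against 7.36 and 6.85 with control morpholino and 7.77, 6.34 and 7.21 uninjected, a difference of -2.44 (SE 0.42; adjusted p = 0.0448), or -2.36 floored. For the CC chemokine ccl34b.1 the levels were 4.23, 5.05 and 5.38, against 7.17 and 6.42 with control morpholino and 6.99, 6.48 and 6.28 uninjected, a difference of -1.78 (SE 0.31; adjusted p = 0.0448). Neither gene overlapped between the groups, and both were lowest on becn1 1 and highest on becn1 3.

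The transcripts that rose varied less between the becn1 arrays. Of the 7, 4 had 1 gene symbol and 3 had none. The zinc finger gene znf395a was at 8.18, 8.31 and 8.88 on the becn1 arrays, against 6.96 and 7.03 in control morpholino hearts and 7.13, 7.43 and 7.35 in uninjected hearts, and rose by 1.28 (SE 0.19; adjusted p = 0.0389). The uncharacterised gene si:ch211-132d3.4 was at 9.24, 9.11 and 8.81, against 8.29 and 8.21 with control morpholino and 8.01, 8.01 and 8.15 uninjected, a rise of 0.92 (SE 0.16; adjusted p = 0.0448). In each of these genes the lowest becn1 array was clear of the highest control.

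A subunit of the promoter selectivity factor of RNA polymerase I, taf1c, had levels of 5.91, 5.78 and 6.05 on the becn1 arrays, against 5.15 and 5.01 with control morpholino and 4.95, 5.04 and 4.99 uninjected, and rose by 0.89 (SE 0.15; adjusted p = 0.0448). The ribosomal protein paralog rpl22l1 measured 12.66, 12.70 and 12.62, against 12.28 and 12.35 with control morpholino and 12.34, 12.37 and 12.35 uninjected, and rose by 0.32 (SE 0.05; adjusted p = 0.0448). Its shift was small, and the 3 becn1 arrays spanned less than the distance to the nearest control. The 3 probe sets without a symbol rose by 0.98, 0.98 and 1.19.

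**Figure D1:**
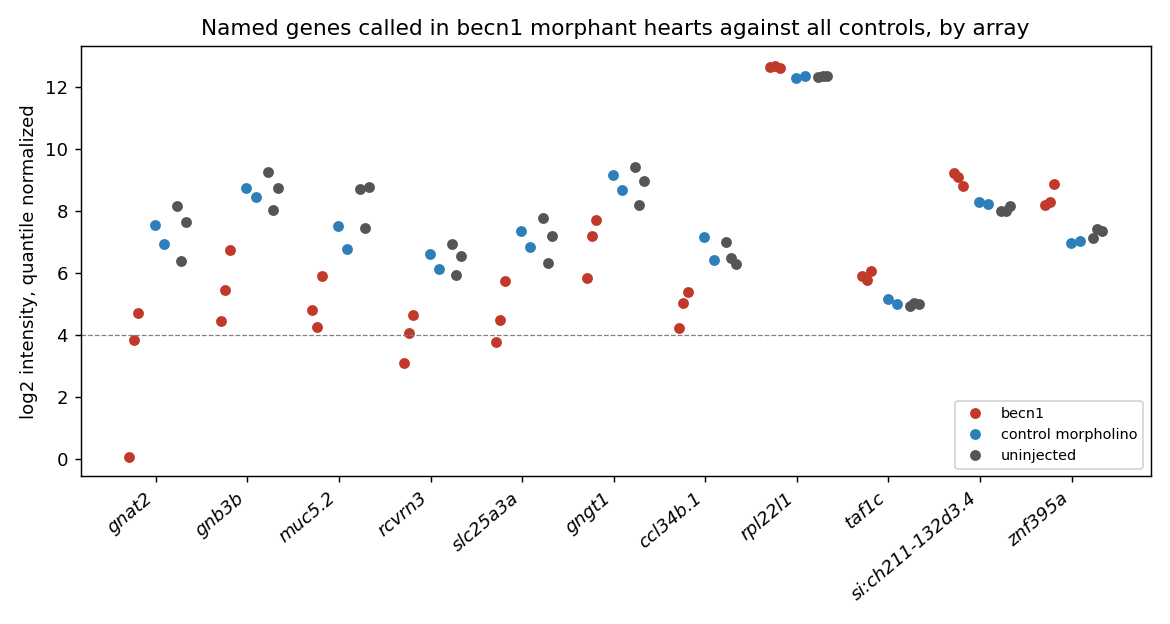
Log2 intensity after quantile normalization (vertical axis) of the 11 named genes called in becn1 against all control hearts, with 1 point per array; the dashed line is an intensity of 16. The becn1 points lie below all control points for the 7 genes at the left, from gnat2 to ccl34b.1, and above them for the 4 at the right.

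Each of the 14 called probe sets had the same direction against both kinds of control, with an unadjusted p under 0.05 against both. The 14 had been chosen by their difference from these same 5 control arrays, and in all 14 the becn1 arrays did not overlap the controls. The shared direction therefore follows from the choice and is no separate check. The choice also favours a low p against each kind of control. The sizes were close for most of the 14. The difference of gnb3b was -3.06 (SE 0.54) against control morpholino and -3.13 (SE 0.48) against uninjected hearts, and that of znf395a was 1.46 (SE 0.23) and 1.15 (SE 0.21). The exception was muc5.2, at -2.15 (SE 0.48) against control morpholino and -3.32 (SE 0.43) against uninjected hearts. Control morpholino and uninjected hearts themselves differed in muc5.2 by -1.17 (SE 0.48), at an unadjusted p of 0.0291 and an adjusted p of 1 in limma, and it was the 1 called gene with an unadjusted p under 0.05 between the controls.

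Taken alone, neither control group gave many calls. Against the 2 control morpholino arrays 0 probe sets were called (0%) and 544 had an unadjusted p under 0.05. Against the 3 uninjected arrays 1 was called (0.0097%), muc5.2, with an adjusted p of 0.0361 in limma, and 1603 had an unadjusted p under 0.05. That call was lost without becn1 1, becn1 2, uninjected 1, uninjected 3 or either control morpholino array. Without uninjected 2 there were 9 calls and without becn1 3 there were 42. Control morpholino against uninjected hearts gave 0 calls and 266 at an unadjusted p under 0.05. Both comparisons use the same becn1 arrays. Of the 1477 probe sets at an unadjusted p under 0.05 against all controls, 1477 had the same sign against both kinds of control and 359 had an unadjusted p under 0.05 against both. The 1477 were chosen on the same arrays, which favours a shared sign, so these counts are no separate check.

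**Figure D2:**
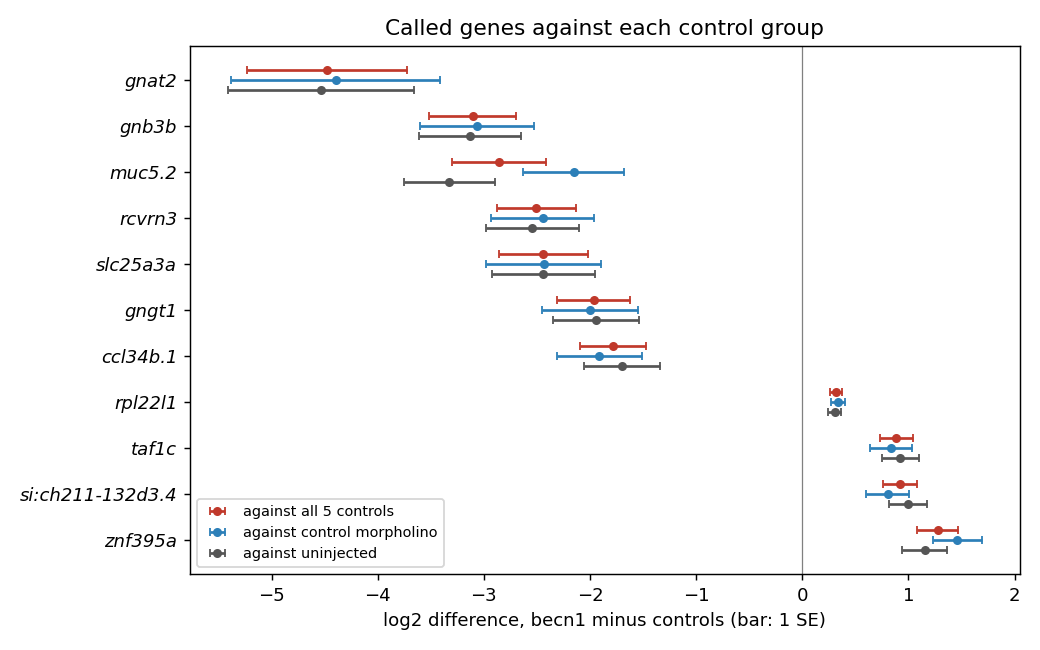
Log2 difference, becn1 minus controls, with a bar of 1 SE on each side, for the 11 named genes called, against all 5 controls, against control morpholino and against uninjected hearts. The 3 estimates lie close together for each gene except muc5.2, which ran from -2.15 against control morpholino to -3.32 against uninjected hearts.

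Further genes did not overlap between the groups but missed the call. On the lower side these were again led by cone genes. The inhibitory phosphodiesterase subunit pde6hb was at 3.85, 5.19 and 6.48 on the becn1 arrays, against 7.83 and 7.69 with control morpholino and 8.88, 7.14 and 8.77 uninjected (difference -2.89, floored -2.84, adjusted p = 0.0526 in limma). Phosducin b (pdcb), which binds transducin beta and gamma subunits, was at 3.06, 4.95 and 6.30, against 8.37 and 7.59 with control morpholino and 8.26, 6.73 and 8.02 uninjected (difference -3.02, floored -2.71, adjusted p = 0.0526). The synaptotagmin syt5a differed by -2.201 (floored -1.48) and the second mucin muc5.1 by -1.59, both at an adjusted p of 0.0526.

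The regulator of G protein signalling rgs5a, expressed in vascular mural cells, showed another pattern over the replicates. It was at 4.81, 4.90 and 4.62 on the becn1 arrays, against 6.04 and 5.64 with control morpholino and 6.01, 5.94 and 5.83 uninjected (difference -1.12, SE 0.21, adjusted p = 0.0526 in limma). The becn1 arrays were close together and below all controls, and becn1 1 was not the lowest.

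On the higher side, hoxb9a, a homeobox gene of the posterior body axis, was at 6.80, 6.75 and 6.78 on the becn1 arrays, against 6.08 and 6.37 with control morpholino and 5.82, 5.80 and 5.67 uninjected (difference 0.83, adjusted p = 0.0755 in limma). The DNA single-strand break repair scaffold xrcc1 differed by 0.99 (adjusted p = 0.0683) and the lysosomal protease ctsl.1 by 1.504, floored 1.41 (adjusted p = 0.0990). For ctsl.1 the levels were 5.80, 6.47 and 6.18, against 4.76 and 5.13 with control morpholino and 4.97, 4.84 and 3.52 uninjected, so that uninjected 3 lay well below the other controls. The other genes of this group were rps27.2, a ribosomal protein of the small subunit (0.53), hpdl (1.06), the neuronal intermediate filament inab (0.84), the nucleolar protein rsl1d1 (0.88) and enc3 (0.72), with adjusted p-values of 0.0849 to 0.0892.

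Phototransduction genes over the filter on low signal were lower in becn1 hearts. Of 61 genes listed, 31 were on the array and 19 passed the filter, and the becn1 hearts were lower in 19 and higher in 0. The filter asked for signal on a few arrays only, whatever their group. A gene weak on every becn1 array could thus pass through control arrays where it was higher. An example may be rcvrn3, at 3.08 to 4.64 on becn1 arrays and 5.94 to 6.94 on controls. The counts of this list hold only for genes that passed, and the same filter applied to all genes kept. The list was also chosen with earlier results of these data known, so its counts describe these genes and are no test. The genes under the filter were not tested, among them guanylyl cyclase genes (gucy2d, gucy2f and gc2), their activators (guca1aa, guca1b and guca1c), the rod phosphodiesterase pde6a and the red opsin opn1lw1. The 3 becn1 arrays lay below all 5 controls in 16 (84.2%), against 3.21% of all genes kept, and 3 were called, where a gene with several probe sets was read from the brightest one. The median difference was -2.75, against 0.05 over all 6676 genes kept. It was -2.59 against control morpholino and -2.74 against uninjected hearts, and -2.70 against all controls when floored.

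Of the opsins, the ultraviolet cone opsin opn1sw1 was at -1.05, 5.77 and 7.51 on becn1 1, 2 and 3, against 9.38 and 9.17 in control morpholino hearts and 10.29, 8.74 and 9.84 in uninjected hearts (difference -5.41, floored -3.73, adjusted p = 0.150 in limma). A green opsin, opn1mw1, was at -1.72, 5.305 and 7.06, against 9.63 and 8.57 with control morpholino and 9.88, 8.28 and 9.25 uninjected (difference -5.57, floored -3.67, adjusted p = 0.151). The blue opsin opn1sw2 was at 3.69, 7.19 and 8.94, against 10.65 and 10.14 with control morpholino and 11.08, 9.82 and 10.54 uninjected (difference -3.84, floored -3.74, adjusted p = 0.112). The groups were apart in all 3 genes, but the becn1 arrays were so unlike each other that none passed the test.

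The G protein subunits and effectors other than gnb1b followed the same order of arrays. The cone transducin gamma subunit gngt2b was at 4.70, 9.03 and 10.30 on the becn1 arrays, against 12.01 and 11.53 with control morpholino and 12.17, 11.04 and 11.92 uninjected (difference -3.72). The rod transducin alpha subunit gnat1 differed by -2.15 (floored -1.62), the cone phosphodiesterase pde6c by -3.04 (floored -2.70) and its inhibitory subunit pde6ha by -2.75. Recoverin 2 (rcvrn2) differed by -2.60 (floored -2.33), gngt2a by -2.05, and the second green opsin opn1mw2 by -1.68 (floored -1.01). The related opsin genes may share probe signal, since probe sets of near-identical copies cannot be told apart here. The smallest differences were those of gnb1b (-0.09) and gnb1a (-0.41), beta subunits that many tissues use, and of rgs9b (-0.41, floored -0.24). These were the 3 genes whose groups overlapped.

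The spread between the becn1 arrays was large. Becn1 1 was the lowest of the 3 in 18 of the 19 genes and becn1 3 the highest in 19, and the median difference was -2.08 without becn1 1 and -3.49 without becn1 3. The summed intensity of the 19 genes was 2471 to 6113 on becn1 arrays and 8656 to 17368 on control arrays. On at least 1 becn1 array 12 of the genes were under 16, and on control arrays 0 were. The photoreceptor markers gnat2, gnat1, pde6c and opn1sw1 were over an intensity of 16 on every control array and under it on becn1 1, and rho had no named probe set. In RNA from whole preparations, fewer cells of a type and less RNA per cell cannot be told apart, and the part that eye tissue in the preparations had in these differences was not tested.

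**Figure D3:**
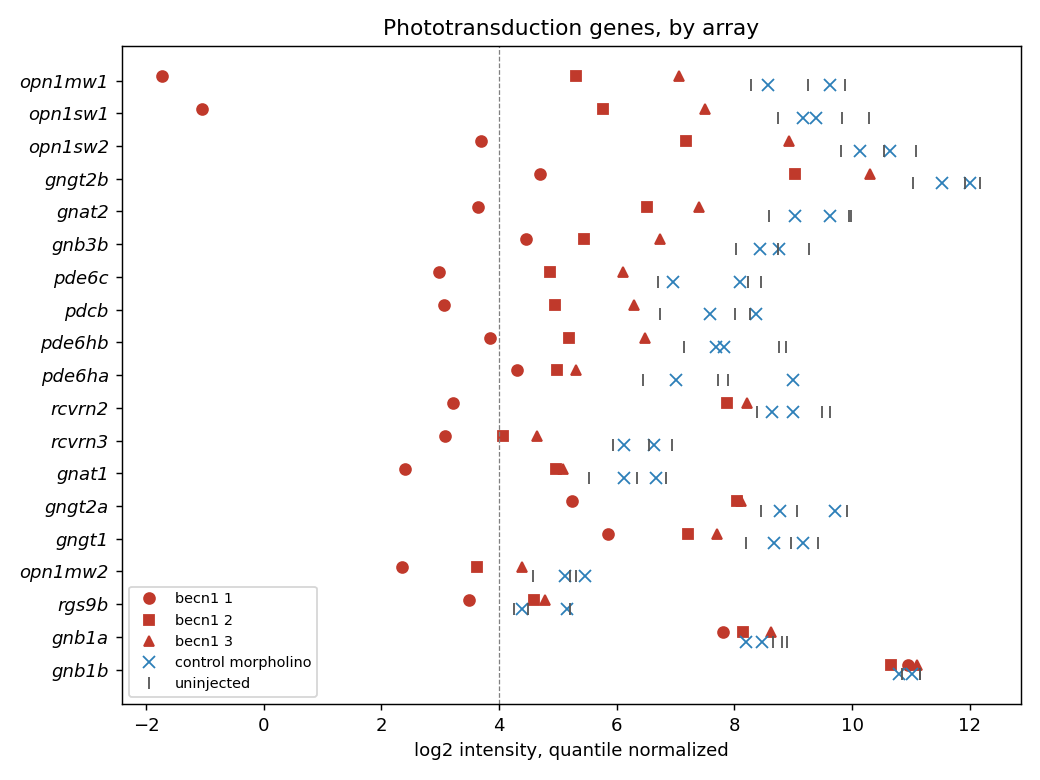
Log2 intensity after quantile normalization (horizontal axis) of the 19 phototransduction genes over the filter, with 1 symbol per array and the 3 becn1 arrays drawn with different symbols; the dashed line is an intensity of 16. In 16 genes all 3 becn1 symbols lie left of every control symbol, and becn1 3 is the nearest to the controls in each.

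Other lists of eye genes had medians nearer to 0. Of 20 photoreceptor fate and structure genes 6 were higher and 14 lower, with a median of -0.40, which was 0.17 without becn1 1 and -0.76 without becn1 3, and 0 were called. The retinol binding protein gene rbp4l differed by -1.54 and the disc rim protein gene rom1b by -1.78 (floored -0.82), and both overlapped between the groups. The 4 genes of pigment cells had a median of -1.44, led by the visual cycle isomerase rpe65a at -2.14 (floored -2.10). Its level was 3.89, 4.87 and 4.38 on the becn1 arrays, against 8.38 and 5.09 with control morpholino and 8.86, 4.40 and 5.89 uninjected, so the controls split widely. Lens genes depended on 1 array. The crystallin cryba4 was at 11.75, 8.91 and 11.93 on the becn1 arrays, against 11.96 and 11.01 with control morpholino and 10.57, 11.26 and 11.93 uninjected, and the median of 3 lens genes was -0.43, or 0.50 without becn1 2.

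Lists of the pathway that becn1 serves had medians close to 0. In the list of autophagy initiation and the PI3K complex 15 of 17 genes on the array were kept, with 7 higher and 8 lower. The median was -0.01, with 0 called and 1 lower at an unadjusted p under 0.05, against 6.4% of all genes kept. The lipid kinase pik3c3 was at 7.74, 7.81 and 7.69 on the becn1 arrays, against 7.89 and 7.87 in control morpholino hearts and 7.94, 7.50 and 7.82 in uninjected hearts (difference -0.06, SE 0.15). Its regulatory subunit pik3r4 was at 6.79, 6.78 and 6.92, against 6.81 and 6.46 with control morpholino and 6.58, 6.51 and 7.18 uninjected (difference 0.12, SE 0.20). Both overlapped, as did nrbf2b, which binds the complex (difference -0.08, SE 0.13), and the initiating kinase ulk1b (difference -0.44, SE 0.20). The signs of pik3c3 and nrbf2b turned on the deposited scale, to 0.07 and 0.08.

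Among 16 genes of conjugation and cargo 5 were higher and 11 lower, with a median of -0.15 (-0.09 without becn1 1), 0 called and 2 at an unadjusted p under 0.05. The cargo receptor sqstm1, whose protein is itself degraded by autophagy, was at 6.90, 7.27 and 7.15 on the becn1 arrays, against 6.47 and 6.73 with control morpholino and 6.68, 6.63 and 6.86 uninjected (difference 0.43, SE 0.19, adjusted p = 0.326 in limma). The LC3 gene map1lc3a was at 8.06, 8.29 and 8.59, against 8.85 and 8.50 with control morpholino and 8.75, 8.72 and 8.74 uninjected (difference -0.40, SE 0.15, adjusted p = 0.272). The other cargo receptor nbr1a differed by -0.34. For sqstm1 and nbr1a the groups did not overlap, though neither passed the test.

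Of 25 lysosomal genes 6 were higher and 19 lower (median -0.12, or -0.23 without becn1 3, -0.07 without becn1 2 and 0.03 on the deposited scale), with 0 called and 2 at an unadjusted p under 0.05. They ran from atp6v0cb, a membrane subunit of the vacuolar proton pump, at -0.66 to the second probe set of ctsl.1 at 1.22 (SE 0.29, adjusted p = 0.124 in limma). This probe set, the brighter of the pair, was at 6.45, 6.86 and 7.15 on the becn1 arrays, against 5.31 and 5.73 with control morpholino and 5.87, 5.62 and 5.45 uninjected. Both ctsl.1 probe sets were thus higher on every becn1 array than on any control. Of the 25 genes, 3 (12%) lay below all controls, atp6v0cb among them, against 3.21% of all genes kept. Above all controls lay 1 (4%), against 4.58% of all genes kept.

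Lists of heart genes had medians near 0 over the 3 becn1 arrays together, but the arrays differed. Of 15 cardiac sarcomere genes 7 were higher and 8 lower (median -0.06, or -0.24 without becn1 1), of 11 cardiac transcription factors 5 and 6 (median -0.09), and of 10 endothelial and endocardial genes 5 and 5 (median -0.04). Without becn1 1 the median of the transcription factors was -0.31 and that of the endothelial genes -0.27, and without becn1 2 that of the transcription factors was 0.09. Relative to the control mean, the sarcomere median was 0.40, -0.42 and -0.37 on becn1 1, 2 and 3. That of the transcription factors was -0.07, -0.24 and -0.18. The endothelial median was 0.31, -0.19 and -0.36, with becn1 1 above all controls (-0.13 to 0.21) and becn1 2 and becn1 3 below them. In these 3 lists 0 genes were called, and 4 had an unadjusted p under 0.05, all lower. The slow myosin smyhc1 was counted in the sarcomere list but is known from slow skeletal muscle. It was at 5.37, 5.61 and 5.63 on the becn1 arrays, against 7.48 and 6.11 with control morpholino and 8.53, 5.60 and 6.91 uninjected. Its difference was -1.39 (SE 0.48), and uninjected 2 fell among the becn1 hearts. The muscle transcription factors mef2d and mef2aa differed by -0.85 and -0.75, and aqp8a.1 of the endothelial list by -1.20 with no overlap. The signs of the sarcomere and endothelial medians turned on the deposited scale, to 0.05 and 0.04.

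The atrioventricular canal, where valves form, is shaped by blood flow through klf2 genes. Of 15 genes listed for it 5 were higher and 10 lower (median -0.21, or -0.09 without becn1 2), with 0 called and 4 at an unadjusted p under 0.05. The flow-responsive transcription factor klf2a was at 5.54, 6.16 and 5.82 on the becn1 arrays, against 6.40 and 6.49 in control morpholino hearts and 6.68, 6.79 and 6.53 in uninjected hearts (difference -0.74, SE 0.19, adjusted p = 0.137 in limma). Its paralog klf2b differed by -0.62 and overlapped with the controls. The canal transcription factor foxn4 was at 7.62, 7.504 and 8.14, against 6.56 and 7.34 with control morpholino and 6.52, 6.9999 and 6.81 uninjected (difference 0.91, SE 0.29, adjusted p = 0.215). In klf2a and foxn4 the groups were apart, in opposite directions.

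Smooth muscle and outflow tract genes were lower in 8 of 8, with a median of -0.40 and 0 called. At an unadjusted p under 0.05, 3 were lower, against 6.4% of all genes kept. Transgelin (tagln), an actin-binding protein of smooth muscle, was at 7.89, 8.01 and 7.03 on the becn1 arrays, against 8.14 and 8.78 with control morpholino and 8.95, 9.49 and 8.44 uninjected (difference -1.11, SE 0.36, adjusted p = 0.215 in limma). Smooth muscle actin acta2 was at 7.88, 6.78 and 7.42, against 8.40 and 8.08 with control morpholino and 8.68, 8.89 and 8.16 uninjected (difference -1.08, SE 0.39, adjusted p = 0.260). In both, no becn1 array reached the lowest control, and the median of the list was -0.49 without becn1 1 and -0.22 without becn1 3. Becn1 hearts did not overlap the controls in 2 of the 8 genes (25.0%), against 3.21% of all genes kept.

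Collagen and matrix genes were lower in 26 of 32, with a median of -0.23 that was -0.07 against control morpholino, -0.25 against uninjected hearts and -0.08 without becn1 2. None was called. At an unadjusted p under 0.05, 1 was higher and 5 lower, against 8.42% and 6.4% of all genes kept. The becn1 arrays lay below all controls in 4 (12.5%), against 3.21% of all genes kept. The fibrillar collagen col1a2 was at 9.78, 9.97 and 10.29 on the becn1 arrays, against 10.62 and 10.63 with control morpholino and 10.96, 10.61 and 10.92 uninjected (difference -0.74, SE 0.15, adjusted p = 0.0861 in limma). The proteoglycan spock3 differed by -0.88 and col5a2a by -0.86, also with no overlap.

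Cell cycle and DNA replication genes were higher in 67 of 69, with a median of 0.42. None was called, while 26 were higher and 1 lower at an unadjusted p under 0.05, against 8.42% and 6.4% of all genes kept. The median was 0.25 against control morpholino and 0.56 against uninjected hearts, and 0.21 without becn1 1. By array, the median of these genes relative to their control mean was 0.92, 0.28 and 0.13 on becn1 1, 2 and 3, and 0.44 on control morpholino 3, so that becn1 2 and becn1 3 lay within the controls. The condensin subunit ncapg was at 8.999, 8.27 and 8.17 on the becn1 arrays, against 7.67 and 8.06 with control morpholino and 7.38, 7.53 and 7.36 uninjected (difference 0.88, SE 0.22, adjusted p = 0.140 in limma). The proliferation marker mki67 differed by 0.62 and the mitotic kinase aurka by 0.78, and in 3 of the 69 genes the groups did not overlap (4.35%), against 4.58% of all genes kept.

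Lists of growth machinery were mostly higher as well, as were 3841 of all 6676 genes kept. Ribosome biogenesis genes were higher in 51 of 54 (median 0.32, or 0.15 without becn1 1), proteasome genes in 40 of 41 (median 0.26) and spliceosome genes in 60 of 67 (median 0.22). Of these, 1 was called, taf1c of ribosome biogenesis, and the groups did not overlap on the higher side in 2 genes (3.7%), 0 genes (0%) and 4 genes (5.97%), against 4.58% of all genes kept. The proteasome median was 0.11 against control morpholino, 0.35 against uninjected hearts and 0.42 without becn1 3, and becn1 3 itself, at 0.02 above the control mean, lay within the controls. The spliceosome median was 0.15 against control morpholino, 0.27 against uninjected hearts and 0.14 without becn1 1. The ribosome biogenesis median was 0.50 without becn1 3. Relative to the control mean it was 0.715, 0.31 and -0.05 on becn1 1, 2 and 3, so becn1 3 lay within the controls. The spliceosome median was 0.35, 0.17 and 0.11 on these arrays and 0.21 on control morpholino 3, so becn1 2 and becn1 3 lay within the controls. The nucleolar protein gene utp4 differed by 0.55 and the RNA polymerase I and III subunit polr1c by 0.60. The splicing factor subunits sf3b3 and u2af1 differed by 0.54 and 0.57, the RNA helicase ddx5 by -0.40, and the proteasome subunit psmd4b by 0.48. Cytosolic ribosome genes had a median of 0.02, with 46 higher, 25 lower and rpl22l1 called. This median depended on the normalization. It was 0.12 after scaling to a common trimmed mean and 0.26 on the deposited scale, where the median of all probe sets was 0.145.

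Neural progenitor genes were higher in 29 of 38 (median 0.43, with 0.42 against control morpholino and 0.40 against uninjected hearts), with 0 called. At an unadjusted p under 0.05, 11 were higher and 0 lower, against 8.42% and 6.4% of all genes kept. Relative to the control mean, the median was 0.69, 0.17 and 0.45 on becn1 1, 2 and 3, and 0.30 on control morpholino 3, so becn1 2 lay within the controls. In 6 of the 38 genes (15.8%) all becn1 arrays lay above the controls, against 4.58% of all genes kept. The neural transcription factor sox3 was at 8.81, 8.30 and 8.65 on the becn1 arrays, against 7.39 and 8.21 with control morpholino and 7.38, 8.10 and 7.21 uninjected (difference 0.93, SE 0.24, adjusted p = 0.142 in limma). The glial and retinal progenitor gene sox9b was at 9.61, 8.72 and 9.30, against 8.11 and 8.62 with control morpholino and 8.35, 8.57 and 8.17 uninjected (difference 0.85, SE 0.23). The Notch target her4.2 differed by 1.498, or 0.56 floored, on a probe set that may also read its near-identical neighbours. Uninjected 2 and control morpholino 3 were the highest controls for sox3 and reached close to the becn1 hearts.

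**Figure D4:**
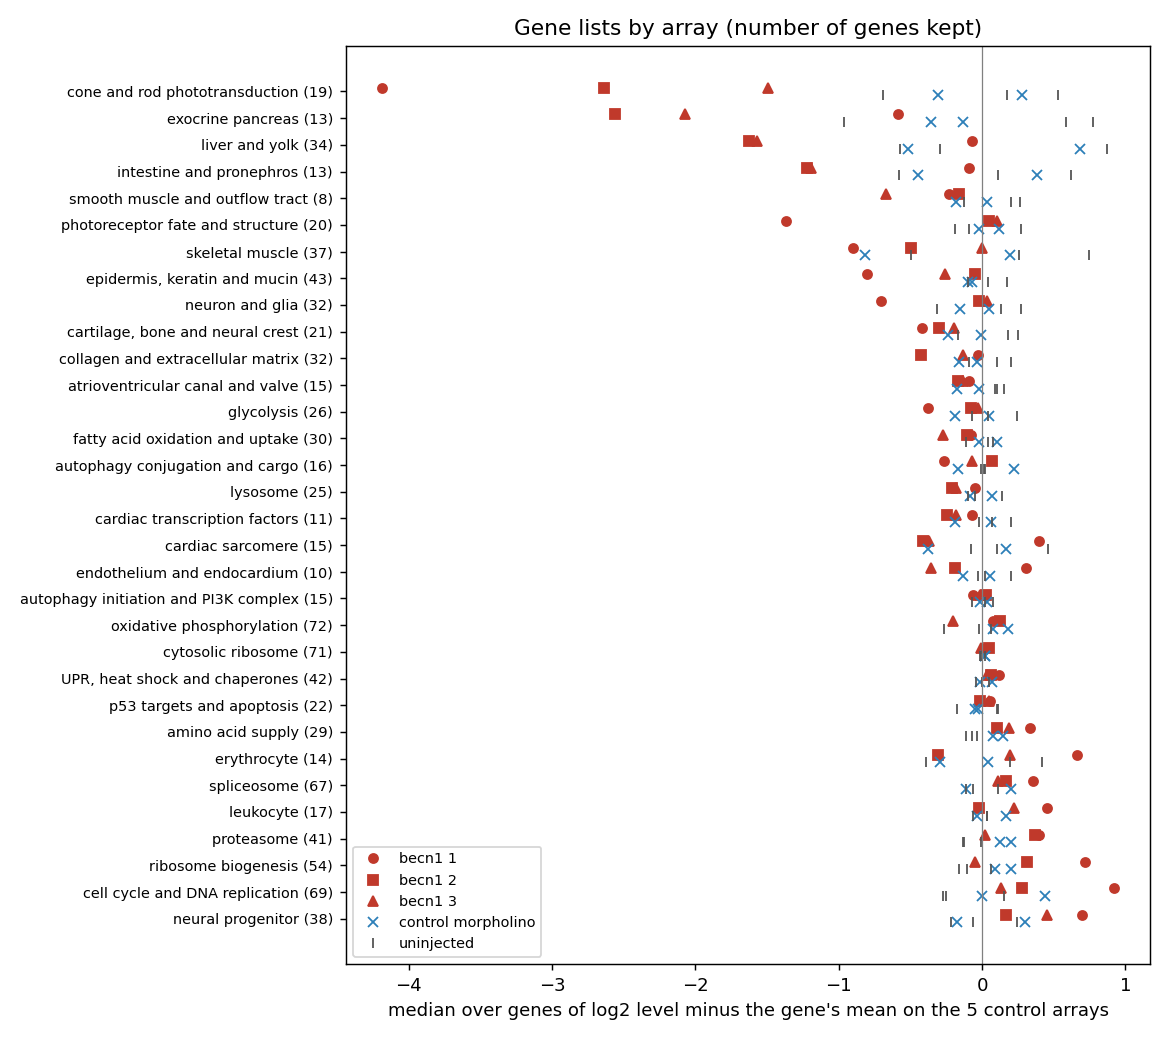
Median over the genes of each list of the log2 level minus the gene's mean on the 5 control arrays (horizontal axis), 1 symbol per array, with the number of genes kept in brackets. Phototransduction is at -4.18, -2.63 and -1.50 on becn1 1, 2 and 3, below all controls, while for liver and pancreas becn1 1 lies among the controls and becn1 2 and becn1 3 lie below them.

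Markers of digestive organs were lower too, on becn1 2 and becn1 3 but not on becn1 1, whose list medians lay among those of the controls. Liver and yolk genes were lower in 32 of 34 (median -1.09). So were pancreas genes in 11 of 13 (median -1.95) and intestine and pronephros genes in 12 of 13 (median -0.70). In these lists 0 genes were called and 24 had an unadjusted p under 0.05, of which 1 was higher. Of all genes kept, 8.42% were higher and 6.4% lower at that p. The median of liver and yolk genes relative to their control mean was -0.07, -1.63 and -1.57 on becn1 1, 2 and 3, and 0.68 and -0.52 on the control morpholino arrays. The iron carrier gene tfa, secreted by the liver, was at 11.05, 9.08 and 9.36 on the becn1 arrays, against 11.65 and 11.14 with control morpholino and 11.47, 11.37 and 10.95 uninjected (difference -1.48, SE 0.50, adjusted p = 0.235 in limma). Becn1 1 thus overlapped the controls in tfa. The liver median was -1.66 without becn1 1 and -0.72 without uninjected 1. The chymotrypsin-like protease ctrl was at 5.55, 3.73 and 4.72, against 6.58 and 6.40 with control morpholino and 7.503, 7.52 and 5.80 uninjected (difference -2.09, floored -2.00, adjusted p = 0.199), with no overlap.

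Epidermis, keratin and mucin genes were lower in 40 of 43 (median -0.35, or -0.15 without becn1 1), with muc5.2 called and 7 below all controls (16.3%), against 3.21% of all genes kept. The mucin-processing gene agr2 was at 7.04, 7.92 and 7.26 on the becn1 arrays, against 8.46 and 8.40 with control morpholino and 9.07, 8.67 and 8.21 uninjected (difference -1.16, SE 0.26, adjusted p = 0.102 in limma). The keratin krt97 differed by -0.67, with -0.40 against control morpholino and -0.85 against uninjected hearts. Mucin genes and agr2 of the list were thus apart from the controls, while its most abundant keratin among the markers, krt4, overlapped with them.

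Cartilage and neural crest genes were lower in 13 of 21 (median -0.23, or -0.10 without uninjected 3), with 0 called. At an unadjusted p under 0.05, 7 were lower, against 6.4% of all genes kept. The hypertrophic cartilage collagen col10a1a was at 3.61, 4.86 and 5.45 on the becn1 arrays, against 6.70 and 6.02 with control morpholino and 7.22, 6.30 and 6.26 uninjected (difference -1.86, floored -1.73, adjusted p = 0.0526 in limma). The cartilage matrix gene matn1 was at 3.03, 5.35 and 7.18, against 8.20 and 8.23 with control morpholino and 9.42, 6.85 and 9.13 uninjected (difference -3.18, floored -2.85), and here becn1 3 overlapped uninjected 2. Skeletal muscle genes were lower in 29 of 37, with a median of -0.36 that was -0.09 against control morpholino, -0.58 against uninjected hearts, -0.16 without becn1 1 and -0.76 without becn1 3. Their mitochondrial creatine kinase ckmt2a was at 2.87, 7.01 and 7.85, against 8.50 and 8.62 with control morpholino and 8.85, 7.74 and 9.20 uninjected (difference -2.67, floored -2.296).

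Mature neuron and glia genes were higher in 11 and lower in 21 of 32, with a median of -0.30 that was 0.02 without becn1 1. The synuclein gene sncgb differed by -1.04, and the brain proteoglycan ncana by 1.04 and the intermediate filament prph by 0.77, each with no overlap and with adjusted p-values of 0.133 to 0.214 in limma. Erythrocyte genes were higher in 9 of 14 (median 0.19, or -0.03 without becn1 1). The embryonic globin hbbe3 was at 11.70, 9.94 and 10.22 on the becn1 arrays, against 8.72 and 10.43 with control morpholino and 5.00, 9.88 and 6.23 uninjected, so its difference of 2.57 (SE 0.98) rested on 2 uninjected arrays.

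Leukocyte genes were higher in 12 of 17 (median 0.26, or 0.08 without becn1 1), with ccl34b.1 called in the other direction. The macrophage scavenger receptor marco was at 6.08, 4.59 and 4.89 on the becn1 arrays, against 3.78 and 4.101 with control morpholino and 3.32, 2.82 and 3.73 uninjected (difference 1.63, floored 1.16, adjusted p = 0.140 in limma). The chemokine receptor cxcr4b differed by 0.93. The leukocyte markers lyz, mpx and lcp1 and the erythrocyte markers hbae3 and alas2 overlapped with the controls. For lyz the levels were 10.95 to 11.61 on becn1 arrays and 10.66 to 11.16 on controls. Those of hbae3 were 12.85 to 13.05 on becn1 arrays and 13.01 to 13.19 on controls. The part of blood and tissue cells in the other differences was not tested.

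The stress lists had medians near 0. Of 42 chaperone and unfolded protein response genes 25 were higher and 17 lower (median 0.06, 0 called). At an unadjusted p under 0.05, 6 were higher and 2 lower, against 8.42% and 6.4% of all genes kept. The heat shock gene hsp70.3 was at 9.05, 9.25 and 11.55 on the becn1 arrays, against 8.97 and 6.61 with control morpholino and 5.88, 6.56 and 6.74 uninjected (difference 3.00, SE 0.85, adjusted p = 0.172 in limma). Every becn1 array was above every control, but control morpholino 2 nearly reached becn1 1, and the probe set may read related heat shock genes. The chaperone hspa4b differed by 0.37 and the endoplasmic reticulum chaperone hsp90b1 by -0.53. Of 22 p53 target and apoptosis genes 11 were higher and 11 lower (median 0.06, or -0.05 after scaling to a common trimmed mean), with bada at -0.65 and baxa at 0.55.

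Amino acid supply genes were higher in 20 of 29 (median 0.18), with 0 called. At an unadjusted p under 0.05, 9 were higher, against 8.42% of all genes kept. In 5 (17.2%) the becn1 arrays lay above all controls, against 4.58% of all genes kept. The first enzyme of serine synthesis, phgdh, was at 8.49, 8.11 and 7.75 on the becn1 arrays, against 7.64 and 7.51 with control morpholino and 7.36, 7.28 and 7.36 uninjected (difference 0.69, SE 0.17, adjusted p = 0.133 in limma). Isoleucyl-tRNA synthetase iars1 differed by 0.71 and asparagine synthetase asns by 0.85.

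Oxidative phosphorylation genes were higher in 36 and lower in 36 of 72, with slc25a3a called and a median of -0.00, and 6 were at an unadjusted p under 0.05. Glycolysis genes were lower in 18 of 26 (median -0.19, or -0.06 without becn1 1), with 0 called and 4 at an unadjusted p under 0.05. Of these 4, 2 were higher and 2 lower, against 8.42% and 6.4% of all genes kept. The pyruvate kinase pklr was at 5.58, 4.62 and 5.12 on the becn1 arrays, against 6.34 and 6.42 with control morpholino and 6.57, 6.39 and 6.36 uninjected (difference -1.31, SE 0.31, adjusted p = 0.124 in limma). Lactate dehydrogenase ldha differed by 0.69, so that these 2 enzymes were apart from the controls in opposite directions. Fatty acid genes were lower in 19 of 30 (median -0.15, or -0.07 without becn1 3), with the uncoupling protein ucp1 at -1.53 and the heart fatty acid binding protein fabp3 at 0.32, both overlapping.

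The becn1 hearts were last set against the other morphants. The knockdowns share their 5 control arrays, so their differences from controls are given side by side. The atg5 hearts gave 0 calls (0%) and 938 at an unadjusted p under 0.05, and the atg7 hearts 137 calls (1.33%), 81 of them higher (0.786%) and 56 lower (0.543%). Without atg7 2, the array whose 3' to 5' ratios stood apart, the atg7 hearts gave 19 calls, and the part of that array's RNA quality in the atg7 values was not tested. For gnb3b the difference was -3.10 in becn1, -1.31 in atg5 and -4.16 in atg7 hearts, and for znf395a it was 1.28, 0.20 and 0.54. The mucin muc5.2 differed by -2.86 in becn1, -1.36 in atg5 and -2.11 in atg7 hearts, and the chemokine ccl34b.1 by -1.78, -0.57 and -0.52. For slc25a3a the values were -2.44, -1.49 and -2.65, and for si:ch211-132d3.4 they were 0.92, 0.39 and 1.54. The median difference of the phototransduction genes was -2.75 in becn1, -1.31 in atg5 and -3.46 in atg7 hearts. Over all probe sets kept becn1 1 was most like atg7 1, at a correlation of 0.982, and correlated with becn1 2 and becn1 3 at 0.928 and 0.919. Becn1 2 was most like atg5 3 (0.978) and becn1 3 most like atg5 2 (0.970), while these 2 becn1 arrays correlated with each other at 0.966. Each becn1 array was thus nearest to an array of another knockdown.

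The direct test of becn1 against atg5 hearts called 0 probe sets (0%) and had 659 at an unadjusted p under 0.05. Becn1 minus atg5 was 1.07 (SE 0.21) for znf395a and -1.71 (SE 0.39) for gngt1, each at an adjusted p of 0.755 in limma. The test of becn1 against atg7 hearts called 3 probe sets (0.0291%), 1 higher (0.0097%) and 2 lower (0.0194%), with 449 at an unadjusted p under 0.05. The higher one, with no symbol, was among the 14 and was 1.19 above the controls in becn1 hearts and -0.60 in atg7 hearts, a difference of 1.78 (SE 0.26; adjusted p = 0.0370). The lower ones differed from the controls in atg7 hearts and not past the test in becn1 hearts. One was cnot10, which encodes a component of the CCR4-NOT complex, at 0.16 in becn1 and 1.50 in atg7 hearts (becn1 minus atg7 -1.34, SE 0.20, adjusted p = 0.0465), and the other had no symbol (-2.81, adjusted p = 0.0210). Without atg7 2 there were 0 calls between becn1 and atg7 hearts, and 360 at an unadjusted p under 0.05.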

How the data were processed

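The authors deposited 1 intensity per probe set and array on a linear scale, and per the submitters' processing notes the tool was MAS5. Its version and scaling target were not given in the sources used here. Of 15617 probe sets 115 spike-in and housekeeping controls were left out, and of the remaining 15502, 10795 had 1 gene symbol, 135 several and 4572 none, through the platform annotation and the RefSeq gene table. Log2 intensities, with no pseudocount, were quantile normalized over the 13 arrays. Probe sets over the 40th percentile of their own array on at least 2 arrays were kept, 10307 in all (66.5%), for 6676 genes.

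Groups were fitted with limma 3.58.1 in R 4.3.3, with becn1, atg5, atg7 and the 5 controls as groups (9 residual and 4.81 prior degrees of freedom), and again with the control groups apart. Tests were two-sided, with Benjamini-Hochberg adjustment across the 10307 probe sets, and a call was made at an adjusted p under 0.05. Groups came from the sample titles. The number of arrays limits the precision. The procedure was tested on simulated data whose noise was independent between probe sets and arrays. That test does not cover genes that move together by array, as those of the phototransduction list did.

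Named were every called gene, the 12 genes with the smallest p in each direction whose groups did not overlap, and members of the becn1 complex. Up to 3 genes per list were named too, those with the smallest p in the main fit, besides genes of cell type marker sets. Choosing by p on these same arrays favours groups that do not overlap, so these genes do not stand for their lists. A few more, among them members of the phototransduction list beyond the first 3, were chosen after their values were seen. The 35 gene lists hold 1105 genes on the array of 1668, and the members and lists were chosen with earlier results of these data known. Alternatives covered normalization, filter, intensity floor, arrays in the fit, prior variance, weight of the control groups, a replicate block and leaving out each array. Leaving out atg5 and atg7 arrays, and the block between morphants, were chosen after seeing the data.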

Additional observations from a re-analysis of the deposited data

Results flagged for a closer look

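In 6 of the 115 probe sets named or tabulated, 1 of the 5 control arrays lay far from the other controls, by a gap large for the whole range of the group. Chance gives this in about 1 in 20 groups, and 6 of 115 is near that share. No cause was tested for any of them.

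The heat shock gene hsp70.3 was at 8.974 on control morpholino 2, while becn1 arrays ran from 9.05 to 11.55 and the other controls from 5.88 to 6.74. The difference was 3.501 without that array and 2.996 with it. The Notch target her4.2 was at 1.917 on uninjected 3, against 4.14 to 4.81 on becn1 arrays and 3.23 to 3.48 on the other controls, and the difference was 1.211 without it and 1.498 with it. On the same array ctsl.1 was at 3.52, against 5.80 to 6.47 on becn1 arrays and 4.76 to 5.13 on the other controls, with a difference of 1.223 without it and 1.504 with it.

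For the repair gene xrcc1, control morpholino 2 was at 5.707, nearer to the becn1 arrays (6.20 to 6.95) than the other controls (5.34 to 5.44), and the difference was 1.049 without it and 0.99 with it. The synuclein gene sncgb was at 8.514 on uninjected 1, against 6.23 to 7.17 on becn1 arrays and 7.58 to 7.82 on the other controls, and the difference was -0.87 without it and -1.04 with it. The lipid kinase pik3c3 was at 7.503 on uninjected 2, below the becn1 arrays (7.68 to 7.81) and the other controls (7.82 to 7.94). Without that array the difference was -0.13, against -0.06 with it. In none of the 6 did the sign turn when the array was left out. For the genes other than pik3c3 it could not turn, since their groups did not overlap.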

How the results depend on the processing

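The 14 calls against all controls became 59 on the deposited scale (8 shared with the 14), 26 after scaling to a common trimmed mean, 25 after cyclic loess, 5 with no filter, 31 with a floor of 16, 0 with only the 8 arrays, 9 with no variance trend and 3 with the control groups weighted equally, and remained 14 with a stricter filter. Leaving out 1 of the 8 arrays gave 0 to 35, and leaving out 1 atg5 or atg7 array, chosen after seeing the data, 0 to 16. Against control morpholino the count of 0 became 0 to 1 when 1 array was left out, and against uninjected hearts the count of 1 became 0 to 42. The cause of these shifts was not tested. Where an array was left out, the smaller number of arrays and the loss of that array cannot be told apart. The deposited scale moved the median of all probe sets by 0.145.

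The sample titles number the replicates but do not say whether arrays of the same number were handled together, and the main fit did not pair them. Only arrays of the same number were compared here, so the values below do not settle whether they were paired. Deviations from the group means correlated at -0.09, -0.16 and 0.41 between becn1 and uninjected arrays of the same number, and at 0.19 and 0.07 with control morpholino arrays. The replicate block gave 103 calls against all controls (18 higher, 85 lower), 25 against control morpholino and 6 against uninjected hearts. Same-numbered becn1 and atg5 arrays correlated at 0.42, 0.12 and 0.14, and becn1 and atg7 arrays at 0.62 and 0.58. In a group of 2 arrays the deviations are equal and opposite. The 2 values with atg7 are therefore not separate observations, nor are the 2 with control morpholino. In added fits the block left 0 calls between becn1 and atg5 hearts (846 at an unadjusted p under 0.05) and gave 4 between becn1 and atg7 hearts. Without atg7 2 the 3 calls against atg7 became 0.

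The 11 named genes called kept their direction under all 18 alternatives fixed for them. In all 11 the becn1 arrays did not overlap the controls, so most of these alternatives, such as leaving out 1 array, could not turn the sign. The kept direction is therefore no separate check. The gene gnb3b stayed called in 13 of the 18 (difference -3.70 to -2.56), znf395a and muc5.2 in 12, rcvrn3 in 10, gnat2 in 9, slc25a3a and gngt1 in 8, ccl34b.1 in 7, si:ch211-132d3.4 in 6, taf1c in 5 and rpl22l1 in 4. Of 2066 values of the genes named or tabulated, 2060 kept their direction, and the same limit holds for genes whose groups did not overlap. The exceptions were pik3c3 (0.0704) and nrbf2b (0.0824) on the deposited scale, and 3 lens genes. With 1 array left out, cryba4 ran from -1.01 to 0.50, bfsp2 from -1.01 to 0.43 and crybb1 from -0.75 to 0.69, positive without becn1 2 and, for crybb1 (0.02), without uninjected 3. Signals under an intensity of 16 limit the size of the larger falls.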
